A study of Homo sapiens with 6 samples.

Results

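The outer end of the long arm of human chromosome 10 was described in the established embryonic kidney line HEK293T by the peaks of ubiquitylated and of total histone H2A.Z that fall there. Overlapping or touching peaks of both deposited lists were merged, and the merged regions with an hg19 midpoint between 130 and 135.54 Mb were taken. This gave 1857 of 198179 regions, and the outermost of them ended at chr10:135524134. The stretch was chosen because almost all of its differential regions leaned towards the ubiquitylated form. The direction of its regions, the balance of its peak lists and every value made from the same pull-downs are therefore given as descriptions, with no test.

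Ubiquitylated H2A.Z was recovered on streptavidin (2 samples), total tagged H2A.Z on Flag M2 agarose (2 samples) and chromatin in general with a histone H3 antibody (2 samples). Per the labels' protocols the cells had been transfected for 48 h with H2A.Z-1 fused at its C-terminus to Flag and BirA and with ubiquitin bearing an AviTag, in a plasmid ratio of 3 to 1, and nuclei were cut with micrococcal nuclease for 30 min. BirA is a biotin ligase that acts on the AviTag, so streptavidin retains chromatin with ubiquitin that was biotinylated by the fused enzyme. The tagged histone was supplied by transient transfection, the cells also hold their own H2A.Z, and the labels do not say whether replicates were separate cultures. The lists hold 1 value per peak or region over both replicates and no value per library, so read depth is unknown, no spread between replicates can be given, and the authors' IDR (irreproducible discovery rate of a peak between replicates, at most 0.05) and FDR (at most 0.05) are the only measures that carry it.

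The histone variant H2A.Z replaces H2A at promoters, enhancers and other regulatory sites. A part of it carries a single ubiquitin near its C-terminus, which RING1 proteins of the Polycomb repressive complex can attach, and this form is known from silent chromatin such as the inactive X chromosome. The distal long arm of chromosome 10 ends in band 10q26. In the RefSeq gene table of assembly GRCh38.p14, 37 protein-coding genes lie from MKI67, a marker of dividing cells, outward to the end of the chromosome. They run in order through MGMT, which repairs alkylated guanine in DNA, EBF3, a transcription factor of neurons, NKX6-2, a homeobox factor of neural cells, UTF1, a factor of pluripotent cells, and ADAM8, a membrane metalloprotease, to CYP2E1, an ethanol-oxidising cytochrome. SYCE1 and FRG2B lie beyond CYP2E1. That table and the peak files are of different builds. Regions are therefore given by hg19 position alone, and whether one lies in an exon, an intron, a UTR or between genes was not analysed here.

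Against the rest of chromosome 10 the stretch was dense in both forms of H2A.Z, and denser in the ubiquitylated one. Some other chromosome ends were denser, as given below. It held 1760 ubiquitylated and 1114 total H2A.Z peaks over 5.52 Mb, a ratio of 1.58. The rest of chromosome 10 held 6212 ubiquitylated and 6536 total H2A.Z peaks over 130 Mb, a ratio of 0.950. Ubiquitylated peaks numbered 319 per Mb in the stretch and 47.8 per Mb in the rest of the chromosome, 6.66 times as many. Total H2A.Z peaks numbered 202 per Mb in the stretch and 50.3 per Mb in the rest, 4.01 times as many. Ubiquitylated peaks covered 156 kb per Mb of the stretch, against 17.8 kb per Mb elsewhere on the chromosome. Total H2A.Z peaks covered 95.9 kb per Mb of the stretch, against 18.7 kb per Mb elsewhere. The high peak number of the stretch was thus common to both pull-downs and was larger for ubiquitylated H2A.Z.

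**Figure D1:**
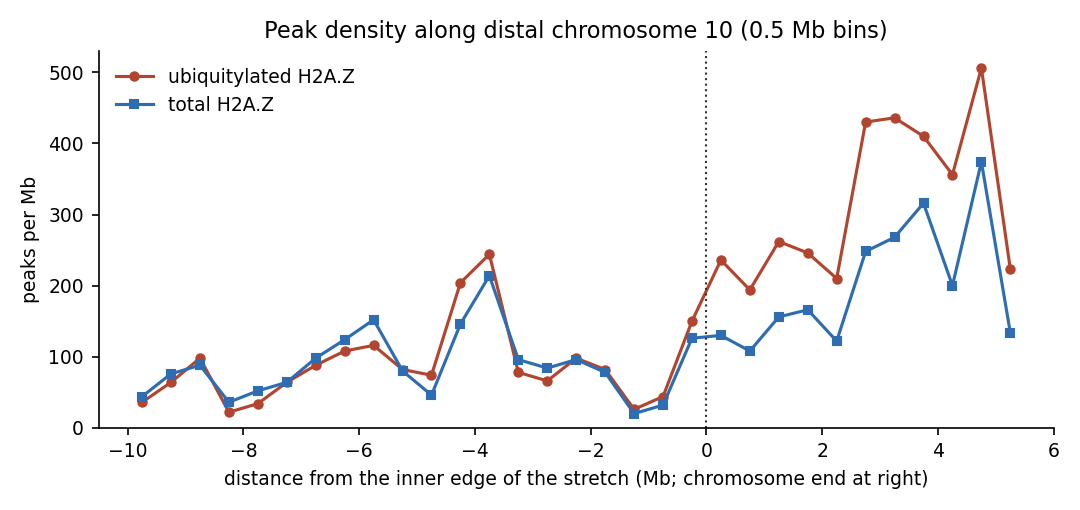
Peaks per Mb (vertical axis) of ubiquitylated and total H2A.Z in bins of 0.5 Mb, by distance in Mb from the inner edge of the stretch (horizontal axis, dotted line at 0, chromosome end at the right). The lists cross repeatedly before the dotted line, and ubiquitylated peaks lie above total peaks in all 11 bins beyond it, with both lists at their highest in the bin that starts 4.5 Mb from the edge.

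Regions with a total H2A.Z peak and no ubiquitylated one were scarce in the stretch. Of its 1857 regions, 792 (42.6%, Wilson 95% interval 40.4 to 44.9%) held ubiquitylated peaks only, 925 (49.8%, 47.5 to 52.1%) held peaks of both lists and 140 (7.54%, 6.42 to 8.83%) held total H2A.Z peaks only. In the rest of chromosome 10 the same classes made up 27.3%, 41.3% and 31.4% of 8880 regions. Over all 198179 regions they made up 28.9%, 41.9% and 29.2%. These intervals and those below cover counting error only, and neighbouring regions are not independent. The lists also differed in how well their peaks repeated. Ubiquitylated peaks of the stretch had a median IDR of 0.00106, against 0.0014 in the rest of the chromosome, where a lower value means better agreement of the replicates. Total H2A.Z peaks of the stretch had a median IDR of 0.00409, against 0.00331 in the rest.

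The members were close to each other. The median gap between neighbours was 752 bp in the stretch and 2529 bp in the rest of chromosome 10, and 56.9% of gaps in the stretch were at most 1 kb, against 33.7% in the rest. Gaps above 20 kb were 30 of 1856 in the stretch (1.62%) and 1378 of 8879 in the rest (15.5%). The widest of those in the stretch spanned 117 kb at chr10:133677314-133794372, followed by 77.9 kb at chr10:132031356-132109287 and 59.0 kb at chr10:133380317-133439274. No hg19 sequence was used, so whether unsequenced bases make up part of these gaps was not checked. All 56 windows of 100 kb along the stretch held at least 1 member.

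In the authors' deposited table, 420 members were higher in ubiquitylated H2A.Z and 25 were higher in total H2A.Z. Over all regions of the series 9.39% were called higher in ubiquitylated and 12.1% higher in total H2A.Z. In the stretch these shares were 22.6% and 1.35%, and in the rest of chromosome 10, with 594 and 1092 regions, they were 6.69% and 12.3%. Of the 445 differential members 94.4% (Wilson interval 91.8 to 96.2%) were thus higher in ubiquitylated H2A.Z, against 35.2% of 1686 in the rest of the chromosome. The stretch was chosen on this contrast, and nothing is read from these shares against the background. Differential members of either direction made up 24.0% of the stretch, 19.0% of the rest of the chromosome and 21.5% of all regions. Streptavidin and the Flag antibody are different reagents, so unequal recovery by these reagents and unequal ubiquitylation cannot be told apart.

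The same lean was present in members that did not pass the authors' threshold. Of the 1412 members in neither differential list, 531 held ubiquitylated peaks only and 126 held total H2A.Z peaks only, a ratio of 4.21. The ratio was 0.988 in the rest of chromosome 10 and 1.09 over all regions. It was present as well where both lists had a peak. Among the 925 members with peaks of both lists, the authors' deposited table held 159 (17.2%) higher in ubiquitylated and 11 (1.19%) higher in total H2A.Z. Among the 3666 such regions in the rest of the chromosome it held 154 (4.20%) and 309 (8.43%). Members with ubiquitylated peaks only were called in that direction in 261 of 792 cases (33.0%), against 18.1% of the 2423 such regions in the rest. Members with total H2A.Z peaks only were called in the opposite direction in 14 of 140 cases (10.0%), against 28.0% of the 2791 such regions in the rest. All these members come from the pull-downs on whose contrast the stretch was chosen, so they are no separate support for the lean.

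The single differences were small. The fold changes are the authors' own, ubiquitylated over total H2A.Z, taken as log2, a base that the files do not name. The sources used here do not give the normalization behind them. In the authors' deposited table the log2 fold change of the 420 members higher in ubiquitylated H2A.Z had its median at 0.61 (quartiles 0.50 and 0.75, range 0.32 to 2.20), and the corresponding regions in the rest of chromosome 10 had a median of 0.71 (quartiles 0.55 and 0.87). At least 2-fold changes towards ubiquitylated H2A.Z were 29 of the 420 (6.90%) in the stretch, against 88 of 594 (14.8%) in the rest of the chromosome. Such 2-fold changes made up 1.47% of all regions of the series in this direction and 2.39% in the other. In either direction they made up 1.83% of members and 3.86% of all regions. At an FDR of at most 0.01 the authors' deposited table held 218 members on the ubiquitylated and 13 on the total H2A.Z side, 12.4% of members together. Over all regions these calls made up 5.26%, 7.21% and 12.5%. The 25 members higher in total H2A.Z had, in the authors' deposited table, a log2 median of -0.63, with values between -1.20 and -0.38, and 5 of them reached 2-fold. The stretch thus held many calls of modest size in 1 direction.

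**Figure D2:**
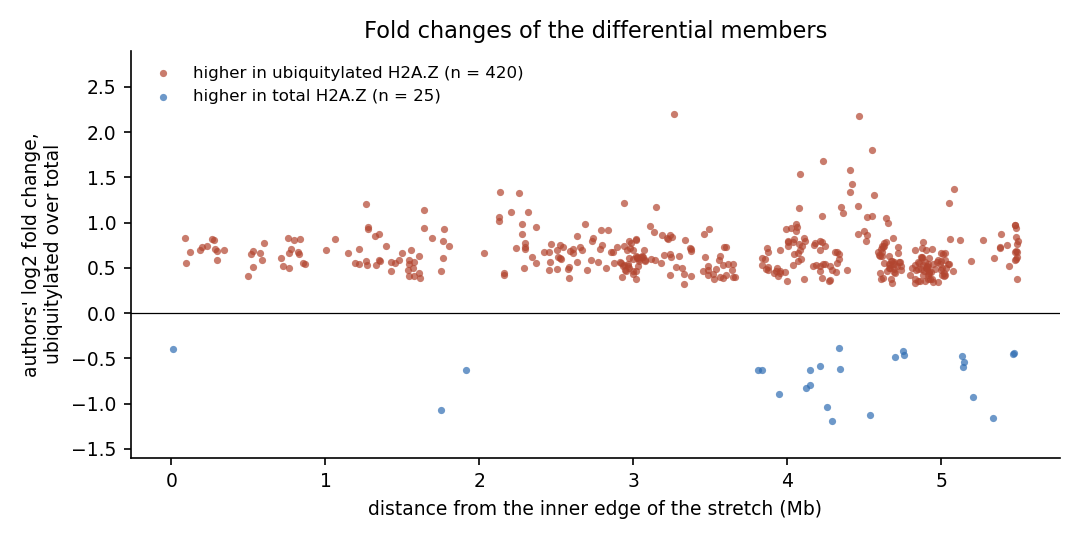
The authors' log2 fold change of ubiquitylated over total H2A.Z (vertical axis) for the 445 differential members by distance in Mb from the inner edge of the stretch (horizontal axis), 1 point per member. The 420 members higher in ubiquitylated H2A.Z mostly lie between 0.5 and 1, and most of the 25 members higher in total H2A.Z lie in the outer part. Members in neither list have no deposited fold change and are not drawn.

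Along the chromosome the balance turned before the inner edge, and the number of calls went up beyond it. In the 10 Mb before it, from 120 to 130 Mb, the authors' deposited table held 84 regions on the ubiquitylated and 102 on the total H2A.Z side. Of the 20 bins of 0.5 Mb there, 9 held more regions on the total H2A.Z side, and none of these lay in the last 5 bins. Those 5, from 127.5 to 130 Mb, held 19 regions on the ubiquitylated and 3 on the total H2A.Z side, with peak ratios of 1.02 to 1.38. In the last bin before the edge, from 129.5 to 130 Mb, 7 regions were on the ubiquitylated side and 2 on the total H2A.Z side, and in the first bin after it 13 and 1. Within the stretch none of 11 bins had more regions higher in total H2A.Z, and 5 had none at all. The bins also differed in size, with 16 to 154 regions before the edge and 109 to 260 beyond it. As a share of these regions, calls on the ubiquitylated side made up 0 to 19.2% before the edge and 10.2 to 35.8% beyond it. The bins before and beyond the edge thus overlap in this share. The ratio of ubiquitylated to total peaks was 1.30 to 1.82 in the bins of the stretch (median 1.68) and 0.611 to 1.61 in those of the preceding 10 Mb (median 1.01), so the bins of these parts overlap in this ratio. The edge at 130 Mb is a round position rather than a boundary in the data. The last 3 regions before it, chr10:129952671-129952944, chr10:129955852-129956162 and chr10:129985745-129986024, and the first 3 after it, chr10:130005940-130006117, chr10:130008094-130008432 and chr10:130008775-130008971, were in neither differential list. The first differential member, chr10:130010429-130011446, was higher in total H2A.Z.

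**Figure D3:**
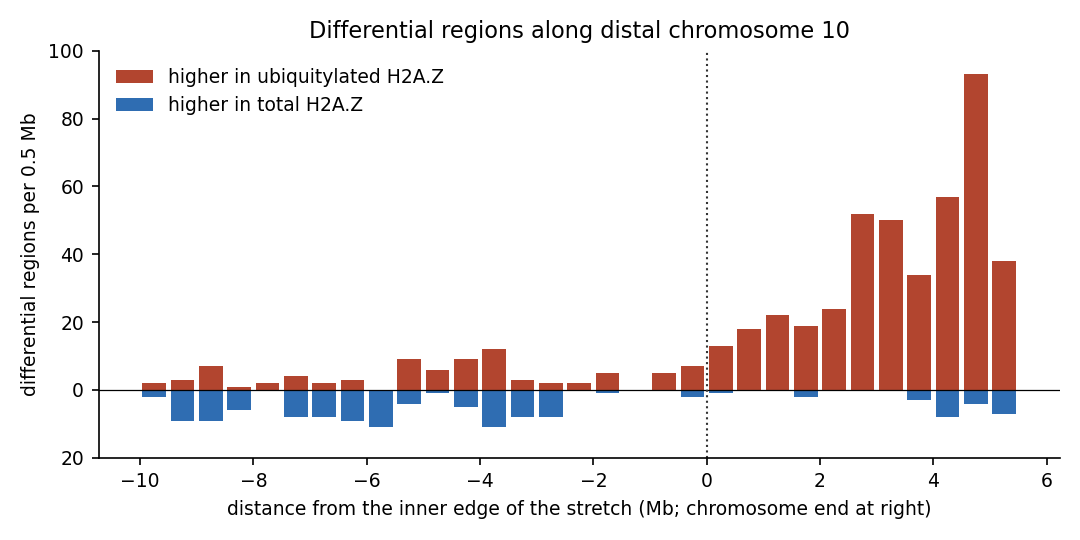
Number of differential regions per 0.5 Mb (vertical axis), higher in ubiquitylated H2A.Z above the line and higher in total H2A.Z below it, by distance in Mb from the inner edge of the stretch (horizontal axis, dotted line at 0). Before the edge no bin holds more than 12 regions higher in ubiquitylated H2A.Z. Beyond it the bins hold 13 to 93, with the highest bin starting 4.5 Mb from the edge. These are counts rather than shares, and the bins hold 16 to 154 regions before the edge and 109 to 260 beyond it.

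Inside the stretch the calls became more frequent towards the chromosome end. From 130 to 132.5 Mb, the authors' deposited table put 96 of 624 members (15.4%) on the ubiquitylated side and 3 on the total H2A.Z side. From 132.5 to 133.5 Mb there were 448 members per Mb, and 102 of 448 (22.8%) were on the ubiquitylated side and 0 on the total H2A.Z side. That 0 of 102 differential members allows a share higher in total H2A.Z of up to 2.94% by the limit of 3 counts, and of up to 3.63% by the Wilson interval. From 133.5 to 134.5 Mb, 91 of 403 (22.6%) were on the ubiquitylated side and 11 on the total H2A.Z side. From 134.5 Mb to the end, 34.3% of 382 were on the ubiquitylated side and 11 members on the total H2A.Z side. In the authors' deposited table, the members higher in ubiquitylated H2A.Z had median log2 fold changes of 0.67, 0.62, 0.61 and 0.56 over these 4 parts in this order. More members were called towards the end, and their fold changes were not larger. The windows of 100 kb with most members higher in ubiquitylated H2A.Z were 134.6 to 134.7 Mb, with 31 of 67, then 134.8 to 134.9 Mb, with 23 of 75, and 134.9 to 135.0 Mb, with 23 of 51. Of the 56 windows 51 held a member higher in ubiquitylated H2A.Z, 15 held one higher in total H2A.Z, and 2 held more of the second kind.

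Members higher in ubiquitylated H2A.Z followed each other in long series. The longest held 142 such members with no opposite call between them, over chr10:132031057-133657659 (1.63 Mb). The series also spanned 517 members in neither list, and its median log2 fold change was 0.62 in the authors' deposited table. The next held 67 over chr10:130090507-131693700 (1.60 Mb) and 64 over chr10:134794682-135124185 (0.330 Mb). In all, 9 series of 10 or more held 382 of the 420 members. The members higher in total H2A.Z formed 19 series, 15 of them single regions and none longer than 3. In the rest of chromosome 10 the longest series held 44 regions higher in ubiquitylated and 31 higher in total H2A.Z. The stretch was chosen for its share of calls towards ubiquitylated H2A.Z, and that choice favours long series of that direction. Whether their lengths go beyond what that share gives was not tested.

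Of the 420 members higher in ubiquitylated H2A.Z, 261 (62.1%) held no total H2A.Z peak, and of the 8 with the lowest FDR 6 held none. The same held for 13604 of the 18614 regions called in this direction over the whole series. In the rest of chromosome 10 it held for 438 of 594. Both are larger shares than in the stretch, so lack of a total H2A.Z peak is not particular to its calls. The lowest FDR belonged to chr10:133260465-133261026, 562 bp wide, which in the authors' deposited table also led the stretch in log2 fold change, with 2.20 (FDR 8.7e-23). Next in the authors' deposited table came chr10:134230157-134231125 (log2 fold change 1.68, FDR 1.4e-13), chr10:135483848-135485536 (0.94, FDR 2.9e-12) and chr10:134550055-134550737 (1.80, FDR 5.8e-12). Then the authors' deposited table gives chr10:135083982-135085132 (1.37, FDR 2e-10) and chr10:133145077-133145675 (1.18, FDR 1.3e-09). These 6 are the ones without a total H2A.Z peak. The seventh and eighth, chr10:133183550-133185714 (0.86, FDR 7.3e-09) and chr10:135487151-135488855 (0.76, FDR 1.1e-08 in the authors' deposited table), held peaks of both lists and were wide, at 2165 and 1705 bp. Among the 5 largest fold changes in the authors' deposited table were also chr10:134464038-134464258 (2.18, FDR 1.6e-06), which was 221 bp wide, and chr10:134403096-134403523 (1.58, FDR 4.8e-06).

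The 3 peaks of lowest IDR in each list lay where both lists had a peak, which is the most common class in the stretch. The 3 ubiquitylated peaks with the lowest IDR were chr10:133317988-133318831 (IDR 5.5e-08), chr10:134795746-134796498 (8.4e-08) and chr10:131576795-131577214 (1.2e-07). In the other list the lowest IDR belonged to chr10:131768638-131769243 (IDR 5.8e-06), chr10:135333845-135334116 (1e-05) and chr10:133317997-133318428 (1.1e-05). All 6 lay in regions with peaks of both lists, and the first ubiquitylated and the last total H2A.Z peak lay in the same region. The region of chr10:131576795-131577214 was higher in ubiquitylated H2A.Z (log2 fold change 0.57, FDR 0.011 in the authors' deposited table). The other 5 peaks lay in regions of neither differential list, as did 81.6% of all members with peaks of both lists.

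The 25 members higher in total H2A.Z lay mainly in the outer part and among members of the opposite direction. Their distance to the nearest member higher in ubiquitylated H2A.Z, between midpoints, had a median of 11.1 kb and ran from 0.679 to 110 kb, and 12 of them had one within 10 kb. In the inner part there were 3, namely chr10:130010429-130011446 (log2 fold change -0.40, FDR 0.023), chr10:131748350-131748620 (-1.07, FDR 0.00067) and chr10:131909582-131910070 (-0.63, FDR 0.0037) in the authors' deposited table. Between 133.8 and 134.35 Mb there were 11, beside 66 higher in ubiquitylated H2A.Z. These included chr10:134257862-134258164 (-1.04, FDR 0.00049) and chr10:134145673-134146268 (-0.63, FDR 0.0016) in the authors' deposited table. The others named there by their FDR were chr10:133811618-133812368, chr10:133837027-133837438, chr10:133942969-133943282, chr10:134121689-134121984, chr10:134144846-134145101, chr10:134211164-134211663, chr10:134287305-134287473 and chr10:134330290-134333358. The last of these was 3069 bp wide, held 3 ubiquitylated peaks and 1 total H2A.Z peak, and, with -0.38 in the authors' deposited table, changed least of the 25. The lowest FDR of the 25 belonged to chr10:134535805-134536282 (-1.13, FDR 1.4e-05 in the authors' deposited table), which held a total H2A.Z peak only.

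The outermost part past 135.1 Mb began with members of both directions. Between there and the last series of the chromosome, 9 members were higher in ubiquitylated and 7 higher in total H2A.Z by the authors' deposited table. Of the 7, the named ones were chr10:135143499-135144025, chr10:135207733-135208121, chr10:135333578-135333742, chr10:135462001-135462258 and chr10:135471804-135472111. In the authors' deposited table their log2 fold changes lay between -1.16 and -0.44. The named member chr10:134754044-134754962 (-0.46, FDR 0.018 in the authors' deposited table) lay further in.

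Part of the last differential series of chromosome 10 had a regular layout. Within chr10:135477959-135495121, 17.2 kb long, lay 13 members, and all 13 were higher in the ubiquitylated form by the authors' deposited table, with log2 fold changes of 0.38 to 0.98 (median 0.68). Of these 11 held ubiquitylated peaks only, and together the 13 covered 68.7% of the span. The 4 widest, chr10:135483848-135485536, chr10:135487151-135488855, chr10:135490458-135492149 and chr10:135493753-135495121, were 1689, 1705, 1692 and 1369 bp wide, and their starts were 3303, 3307 and 3295 bp apart. Narrower members of 566 to 604 bp stood before each of them, starting at chr10:135482909-135483512, chr10:135486240-135486805, chr10:135489546-135490115 and chr10:135492847-135493445, with steps of 3331, 3306 and 3301 bp between their starts. The other 5 members lay on the inner side of these 8, and those of 610 and 618 bp among them started 1646 bp apart. The outer end of the long arm of chromosome 10 is known to carry D4Z4, a tandem array of a unit of a few kilobases that holds a copy of the DUX4 gene and is nearly identical to the array at the end of the long arm of chromosome 4. Whether these members lie in that array was not checked against an annotation of hg19, and reads from near-identical copies cannot be placed with certainty, so the values of the 13 members are uncertain. At the end of chromosome 4, in the outermost 60 kb, all 20 regions were higher in the ubiquitylated form by the authors' deposited table, with log2 fold changes of 0.40 to 1.13. The last 3 regions over 1 kb called there, chr4:191005383-191006593, chr4:191008692-191009909 and chr4:191012032-191013560, started 3309 and 3340 bp apart, and the one before them, chr4:191002674-191003853, started 2709 bp before the first of these. Without the last 100 kb of the stretch, 94.6% of differential members were higher in ubiquitylated H2A.Z.

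Members were wider than other regions of the chromosome and became wider towards its end. Against the ends of other long arms their median width was not unusual, as given below. Their median width was 373 bp (quartiles 239 and 594), against 299 bp (210 and 453) in the rest of chromosome 10 and 313 bp over all regions. Regions of at least 1500 bp numbered 69 (3.72%) in the stretch and 64 (0.721%) in the rest of the chromosome. Of the 69, 47 lay beyond 134.5 Mb, where they made up 12.3% of members. The median width was 304, 339, 437 and 562 bp over the 4 parts of the stretch from the inner edge to the end. Members with peaks of both lists widened from a median of 360 bp in the first part to 720 bp in the last, and those with ubiquitylated peaks only from 262 to 472 bp. Those with total H2A.Z peaks only had medians of 234 bp in the first and 262 bp in the last part. Members higher in ubiquitylated H2A.Z were wider (median 548 bp) than those higher in total H2A.Z (412 bp) and those in neither list (331 bp), an order also found in the rest of the chromosome (482, 364 and 283 bp). Width moved with the share of members called along the stretch, and its part in that share was not tested. The direction of calls is a different share. Among members of at most 500 bp, 91.7% of differential ones were higher in ubiquitylated H2A.Z, against 94.4% of all differential members. These narrower members are a subset of a stretch chosen for that direction, so nothing about width is read from this value. The widest members were chr10:133980569-133984966 (4398 bp), chr10:135012995-135016637 (3643 bp), chr10:134833765-134837406 (3642 bp), chr10:133959736-133962961 (3226 bp) and chr10:134898769-134901926 (3158 bp). All 5 held peaks of both lists. The first 3 were higher in ubiquitylated H2A.Z, with log2 fold changes of 0.45, 0.44 and 0.47 in the authors' deposited table, and the other two were in neither list.

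**Figure D4:**
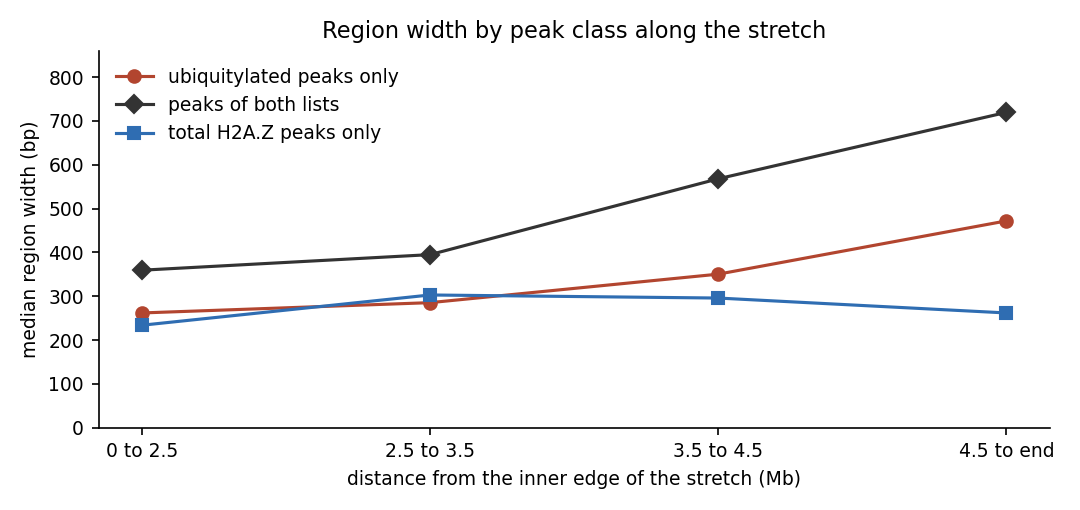
Median width in bp (vertical axis, from 0) of members with ubiquitylated peaks only, peaks of both lists and total H2A.Z peaks only, in 4 successive parts of the stretch by distance in Mb from its inner edge (horizontal axis). Members with peaks of both lists go up to a median of 720 bp and those with ubiquitylated peaks only to 472 bp in the last part, while those with total H2A.Z peaks only stay between 234 and 303 bp.

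Most, but not all, other chromosome ends also held more differential regions on the ubiquitylated side. The outermost 5.54 Mb, counted from the last merged region, was taken at 23 long arms and 18 short arms. At the end of 10q, 94.4% of differential regions leaned towards ubiquitylated H2A.Z, a share no other of the 41 ends exceeded. The ends nearest to it were 8p with 76 of 81 (93.8%), 1p with 495 of 536 (92.4%), 18q with 91 of 99 (91.9%), Xp with 53 of 58 (91.4%) and 7q with 348 of 383 (90.9%). The Wilson intervals of 7 other ends reached the lower bound of 10q, so its first place among them is within counting error. The share was above 50% at 30 of the other 40 ends and below it at 10, down to 11.8% at 18p. The shares at the other long arms ran down to 18.8% at 3q, with a median of 74.6%. The end of the short arm of chromosome 10 held 130 regions higher in ubiquitylated and 28 higher in total H2A.Z (82.3%). In peak number the end of 10q was not the extreme. Its ratio of ubiquitylated to total peaks of 1.58 was exceeded by 5 of the other 40 ends, 18q with 3.02 the highest, and its 201 total H2A.Z peaks per Mb were exceeded by 8. Of the other 22 long arms, 3 exceeded its 318 ubiquitylated peaks per Mb and 4 exceeded its 335 regions per Mb. At the short arms these densities ran up to 244 and 262 per Mb. In region width the end of 10q was not the extreme either. Its median width of 373 bp was exceeded at 10 of the other 22 long arms, whose medians ran from 278 to 466 bp (median 366 bp). At the 18 short arms the medians ran from 280 to 481 bp (median 337.5 bp). The order of ends by share is a description of the property by which the stretch was chosen, and no difference between ends was tested.

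**Figure D5:**
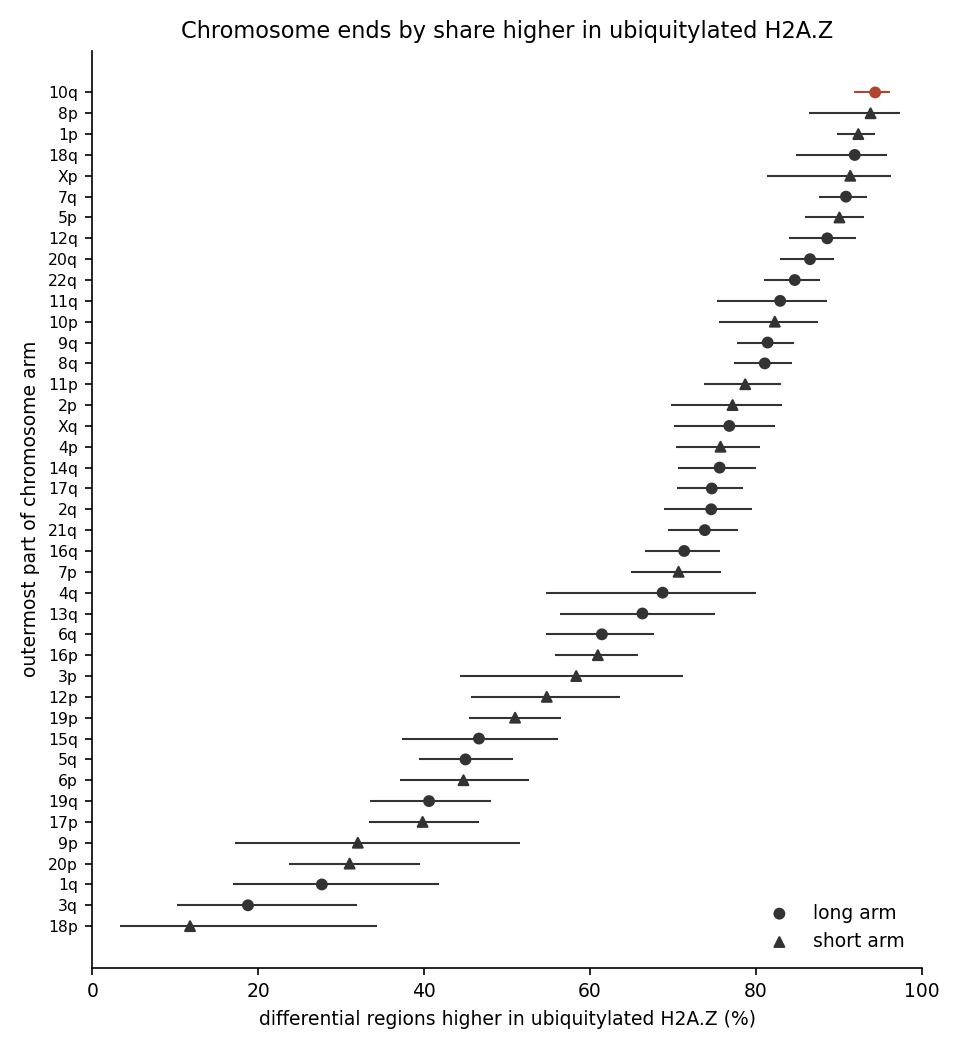
Percentage of calls that were higher in ubiquitylated H2A.Z (horizontal axis) in the outer 5.54 Mb of 41 chromosome arms (vertical axis, p for short and q for long arms), with Wilson 95% intervals over regions. The end of 10q, in red, is at the top with 94.4%, and 5 other ends lie between 90.9 and 93.8%.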

How the data were processed

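The submitters' processing notes name Bowtie, SAMtools, MACS2, edgeR and the build hg19, without their roles. For versions, settings and normalization, the sources used here give nothing. A single peak list per form of H2A.Z was deposited by the authors, each with a value per peak of at most 0.05, read as the IDR, a q-value-like measure, and filtered at IDR 0.05 per the file names. Both lists of differential regions deposited by the authors come with an FDR and a fold change read as log2, because edgeR writes that scale. These lists hold no counts.

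From the files, starts were raised by 1 to give 1-based positions, overlapping or touching peaks were merged, and each differential region was matched exactly to a merged region. Merging was tested on simulated peaks. The members and lists were chosen with earlier results of these data known. Regions named are the 8 of lowest FDR and 5 of largest log2 fold change towards ubiquitylated H2A.Z, up to 20 higher in total H2A.Z by FDR, the 5 widest, the 3 peaks of lowest IDR in each list, and the longest series. The outermost series, the end of chromosome 4, the single windows and the widest gaps were chosen after their values were seen. No region was assigned to a gene, and no sequence is printed, since no hg19 genome or annotation was used. The H3 libraries were not analysed here. Shares have Wilson 95% intervals. Figures were drawn with matplotlib 3.10.9, and values were computed with pandas 2.3.3, numpy 2.4.6 and scipy 1.17.1 in Python 3.11.15.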

Additional observations from a re-analysis of the deposited data

How the results depend on the processing

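No paired analysis was possible because replicates enter the files jointly, with no separate values. Omitting single replicates was not possible either. Of 45 alternative values, 30 stayed within the 95% interval of the reported one (counts per Mb within 1.5 times) and 15 did not. Some of the 30 equal the reported value because the setting changed nothing. These were the limit to regions wholly inside the window and the merging of overlapping but not of touching peaks. Only some of the 45 values measure the share of differential members by direction, and none of those put more on the side of total H2A.Z. They are subsets or shifted windows of a stretch chosen for that share, so a reversal was hardly possible. The share of differential members higher in ubiquitylated H2A.Z was 98.5% without the outermost 2 Mb, 91.7% among members of at most 500 bp and 85.3% among changes of at least 2-fold. The share of members in a differential list was 18.7% without the outermost 2 Mb, and by construction 12.4% at an FDR of at most 0.01 and 1.83% at 2-fold. The median log2 fold change of members higher in ubiquitylated H2A.Z was 0.66 without the outermost 2 Mb, and by construction 0.69 at an FDR of at most 0.01 and 1.21 at 2-fold. The share with ubiquitylated peaks only was 45.4% without the outermost 2 Mb and 45.9% where at least 50% of a ubiquitylated peak had to be overlapped. With peaks of an IDR of at most 0.01 it was 53.3%, and the ratio of ubiquitylated to total peaks was 1.92. Over the whole series the upper quartile of the IDR was 0.00556 for ubiquitylated and 0.0104 for total H2A.Z peaks. That limit therefore removes a larger share of total H2A.Z peaks in general, and its values outside the stretch are not given here. The median width was 319 bp without the outermost 2 Mb and 388 bp with the inner edge moved outward by 1 Mb. Apart from the stated constructions, the cause was not tested. Leaving out the outermost 100 kb and the limits to members of at most 500 bp, to those with peaks of both lists and to those with an IDR of at most 0.01 in either list were chosen after seeing the data. Depth is unknown, so a member in neither list is not shown to be equal in both forms.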

Other observations

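Members of the stretch were more often built of several peaks than other regions of chromosome 10. Single peaks made up 50.2% of the members, against 58.7% of the 8880 regions in the rest of the chromosome, and regions of 3 or more peaks made up 4.36%, against 2.08%. The largest number of peaks in 1 region was 5 in the stretch and 4 in the rest. Over all regions of the series single peaks made up 58.1% and regions of 3 or more peaks 2.67%, with up to 9 peaks in 1 region. These values were not tested.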
